A study of Sorghum bicolor with 96 samples.

Results

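Heat stress in the early part of the day was compared between a pair of sorghum (Sorghum bicolor) lines, to find genes whose response to heat in the line Macia differed from their response in the line RTX430. The comparison rests on 12 of the 96 libraries of the series: RTX430 control, RTX430 heated, Macia control and Macia heated leaves at ZT1, with 3 libraries in each of the 4 groups. For each gene the quantity tested was the heat response of Macia (heated minus control, on the log2 scale) minus the heat response of RTX430. Of the 34129 genes in the deposited table, 18648 had enough counts to be tested and 122 were called, at a Benjamini-Hochberg adjusted p under 0.05 in edgeR's quasi-likelihood test. These 122 genes were then followed at ZT6, ZT9 and ZT15, in libraries outside the contrast that chose them. The later libraries shared the fit, and so helped to set the filter, the scaling and the spread behind each call.

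Plants of every group grew with days of 30 °C and nights of 20 °C. Heated plants received 1 h at 42 °C, and control plants of the same line and time of day stayed in the growth conditions. ZT15 fell in the night, so its controls belong to the 20 °C phase and the step to 42 °C was larger there. Comparisons of ZT1 with ZT15, or with a mean that includes it, thus differ in more than the hour. The share of this in any value was not tested. The design text calls RTX430 thermo-sensitive and Macia tolerant to heat. The heat experiment as a whole holds 48 libraries in 16 groups of 3, from these lines at 4 times of day, and its cold counterpart used RTX430 and the line SC224. Each library was made from polyA RNA of a bulk leaf sample, and the labels call the replicates biological without saying which plants or cultures they came from. In bulk samples, fewer cells of a type and less RNA per cell cannot be told apart.

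ZT stands for zeitgeber time, the hours since lights came on. Within minutes of a rise in temperature plant cells activate heat stress transcription factors, which switch on genes for chaperones that keep other proteins folded, while many genes of growth and photosynthesis are turned down. The circadian clock sets how strongly many stress genes can respond at a given hour, which is called gating. A gene whose response differs between inbred lines may carry a change in its own sequence or respond to a regulator that differs, and a contrast of this kind does not separate these. The deposited table gives sorghum gene identifiers, and none of the 34129 matched an entry of the reference gene table used here, so genes are given by identifier without a name or function.

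The 12 libraries held 1208179 to 6803641 counts (median 4202911), with 16266 to 21359 genes detected in each. The library of RTX430 heated leaves with the lowest total, replicate 2, has ZT1 in its title and ZT2 in the rest of its labels, and the treatment text names ZT0 rather than ZT1 as the earliest time. Levels are given as CPM, the counts per 1e6, on library totals scaled with TMM factors, which averaged 0.93 in RTX430 control, 0.533 in RTX430 heated, 0.855 in Macia control and 0.513 in Macia heated libraries. Scaling therefore raised the CPM of heated leaves to a similar extent in both lines. Each library was compared with its label by genes on in one line and off in the other. These genes were chosen by the labels themselves, so the comparison can show only a single library that stands apart. The 82 genes with a median over 3 CPM in RTX430 and under 0.05 CPM in Macia, across the heat experiment, summed to 844 to 1097 CPM in the 6 RTX430 libraries at ZT1 and to 1.32 to 4.27 CPM in the 6 Macia libraries. The 97 genes with the reverse pattern summed to 643 to 1067 CPM in Macia and to 4.51 to 22.2 CPM in 5 of the 6 RTX430 libraries. The other, RTX430 control replicate 1, had 251 CPM, of which 248 CPM came from a single gene. Of the 97 genes 2 were over 1 CPM in it, against 1 to 4 in the other 5 RTX430 libraries and 73 or more in each Macia library. Results that turn on this library are given without it as well. At ZT15, RTX430 control replicate 1 reached 788 CPM for those 97 Macia genes, with 57 of them over 1 CPM, and replicate 2 reached 166 CPM with 6 over 1 CPM. The remaining 21 RTX430 libraries had at most 54.2 CPM. Several of the results that use ZT15 are therefore given without replicate 1 as well, and the others include it. By the same medians, 250 genes were on under the label RTX430 in one experiment and off in the other, whereas 6 did so between SC224 of the cold experiment and RTX430 of the heat experiment. The identity of the line labelled RTX430 is thus known only from its label, and RTX430 below means the libraries so labelled in the heat experiment unless the cold experiment is named.

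At ZT1 the response to heat differed between the lines for 122 genes, 0.654% of those tested. Of these, 54 responded more positively in Macia (0.29%) and 68 more positively in RTX430 (0.365%). They are called Macia-larger and RTX430-larger genes from here on. The absolute difference had a median of 2.73 on the log2 scale among the 122 genes and ranged from 1.23 to 14.6, the latter fitted for a gene at the floor in a control group, against a median of 0.62 over all genes tested. At an unadjusted p under 0.05 there were 1964 genes, where 932.4 would pass by chance. On either side of the threshold, the last gene called had an adjusted p of 0.0492 and a difference of 1.91 ± 0.48 (SE), and the first gene not called had an adjusted p of 0.0509 and a difference of -1.02 ± 0.26. The number of calls depended on single libraries. It fell to 51 without Macia control replicate 3, to 55 without RTX430 control replicate 1, to 59 without RTX430 heated replicate 3, to 73 without Macia heated replicate 3 and to 76 without Macia heated replicate 1. Fitted on the 12 libraries alone it was 47, and on plain library totals 71. It was 108 without RTX430 heated replicate 2, the library with the ZT2 label. When each of the 12 libraries was left out in turn, 38 of the 122 genes were called every time, 73 at least 6 times and 3 never. Of the 14 genes whose levels are given below as examples, 9 were called every time. Without RTX430 control replicate 1, the library with 251 CPM for Macia genes, 53 of the 55 genes called were among the 122 (25 Macia-larger and 30 RTX430-larger in all), and each of the 122 kept its direction.

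**Figure D1:**
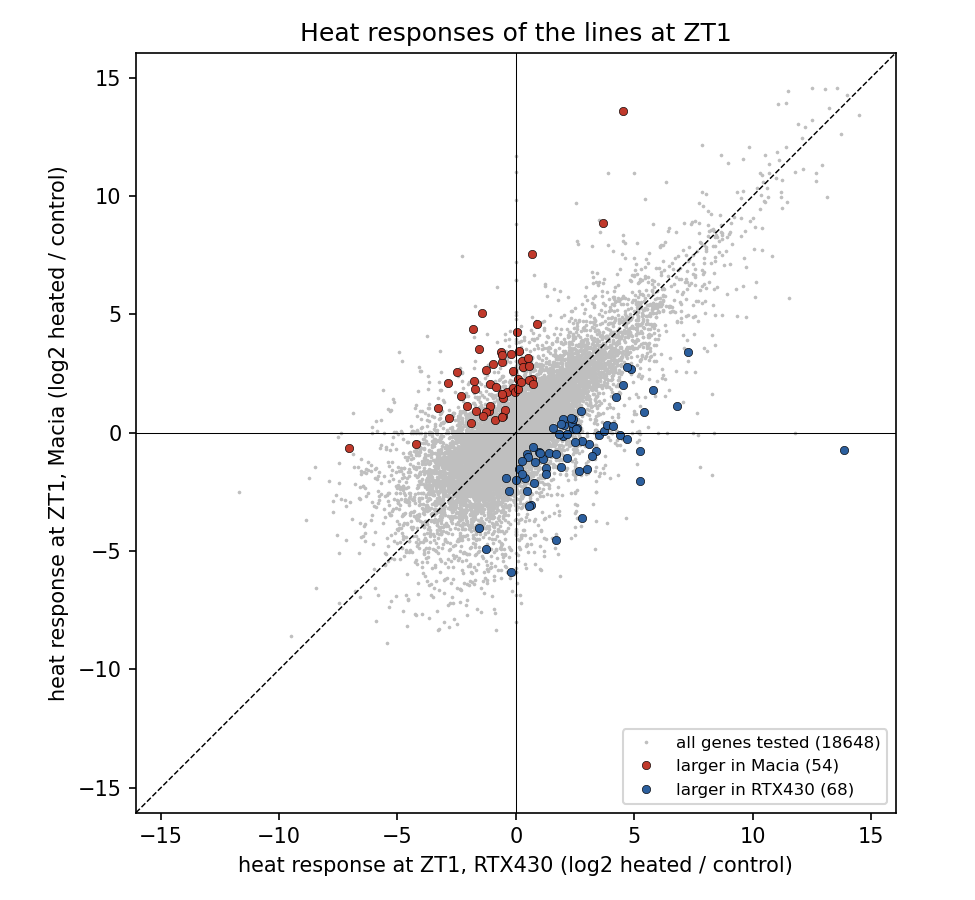
Heat response of each gene at ZT1 in RTX430 (horizontal axis, log2 of heated over control) and in Macia (vertical axis, same unit), with all 18648 genes tested in grey, the 54 Macia-larger genes in red and the 68 RTX430-larger genes in blue. The called genes lie off the dashed line of equal response, most of them near the axis of a line that changed little, and the point at the far right is Sobic.003G364400, whose control level in RTX430 was at the floor.

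Most of the 122 genes responded in one line and were not called in the other. Of the 68 RTX430-larger genes, 31 were raised by heat in RTX430 and not called in Macia, 16 were lowered in Macia and not called in RTX430, 10 were raised in RTX430 and lowered in Macia, 9 were raised in both lines and 2 were lowered in both. Of the 54 Macia-larger genes, 30 were raised in Macia and not called in RTX430, 13 were raised in Macia and lowered in RTX430, 7 were lowered in RTX430 and not called in Macia, and 4 were raised in both. Over all genes tested, heat raised 19.6% and lowered 16% in RTX430, and raised 19.1% and lowered 18.2% in Macia. These responses come from the libraries that chose the genes and are given as a description. A gene not called in a line may still have responded there by less than 3 libraries a group could show.

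Levels of the lines were also compared before and after heat. In control leaves at ZT1, 15 of the 122 genes were called higher in Macia and 15 higher in RTX430. Over all genes 4.09% were called in either direction. The other 92 of the 122 genes were not called between the lines before heat. Of the 54 Macia-larger genes, 1 was higher in Macia (2.01% of all genes) and 11 were higher in RTX430 (2.08%) before heat. Of the 68 RTX430-larger genes, 14 were higher in Macia and 4 in RTX430. The control levels enter the difference of responses, so these counts too describe the contrast that chose the genes. In heated leaves, 46 of the 54 Macia-larger genes were higher in Macia (3.59% of all genes) and 56 of the 68 RTX430-larger genes were higher in RTX430 (3.98% of all genes). All 3 heated Macia libraries lay above all 3 heated RTX430 libraries for 50 of the 54 genes, as for 14.1% of all genes tested. All 3 heated RTX430 libraries lay above all 3 heated Macia libraries for 57 of the 68, as for 13.2% of all genes. These counts also describe that contrast, and nothing is read from their excess.

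Among genes with the larger response in RTX430, Sobic.007G217400 had the smallest p. Its level was 7.27, 8.74 and 11.8 CPM in RTX430 control libraries and 127, 80.2 and 119 CPM after heat. In Macia it was 7.6, 6.25 and 8.1 CPM in control and 7.05, 4.67 and 9.46 CPM after heat. The heated RTX430 libraries stood well apart from the other 9, which overlapped each other. The difference of responses was -3.60 ± 0.34 (log2, Macia minus RTX430, SE; edgeR adjusted p = 1.15e-08). Sobic.006G003300, second by p in this direction, went from 12.6, 22.9 and 14 CPM to 158, 135 and 125 CPM in RTX430. In Macia it had 9, 8.75 and 12.8 CPM in control and 8.06, 7.33 and 7.09 CPM after heat. Here too only heated RTX430 leaves were high, and the difference was -3.56 ± 0.46 (edgeR adjusted p = 9.54e-06).

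The widest contrast of levels belonged to Sobic.003G364400, which had 0, 0 and 1 counts in the RTX430 control libraries. After heat the same line gave 5328, 1482 and 8747 counts, or 2369, 2202 and 2518 CPM. In Macia this gene had 0, 2 and 6 counts in control and 1, 1 and 0 counts in heated libraries, at most 1.06 CPM. It was thus among the abundant transcripts of heated RTX430 leaves and near or at the floor in each Macia library, where the floor is 3 counts. Its adjusted p was 0.000117 in edgeR, and 0.107 when Macia control replicate 3, the library with 6 counts, was left out. No fold is given, because the RTX430 control holds a single count.

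Among genes with the larger response in Macia, Sobic.006G249700 had the smallest p. Heat took it from 56.8, 52.5 and 43.8 CPM to 355, 460 and 396 CPM in Macia. In RTX430 it had 88.2, 97.5 and 77.6 CPM in control and 72.5, 29.7 and 67.4 CPM after heat. Control levels were thus higher in RTX430 than in Macia in each library, heated levels were the reverse, and no heated library of one line overlapped the other. The difference was 3.59 ± 0.32 (edgeR adjusted p = 3.9e-09). Sobic.007G219200 showed the same order of levels at lower CPM, with no response called in RTX430 at ZT1. It went from 11.8, 10.3 and 6.34 CPM to 69.5, 115 and 98.8 CPM in Macia, while RTX430 held 16, 18.8 and 18.6 CPM in control and 18.2, 11.9 and 15 CPM after heat. Its difference was 3.54 ± 0.34 (edgeR adjusted p = 1.48e-08), and its heated Macia libraries were the only ones above 20 CPM.

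For 23 genes the lines were called in opposite directions, 10 of them raised in RTX430 and lowered in Macia and 13 the reverse. These responses make up the contrast that chose the genes. The share of all genes with opposite calls was not worked out, so nothing is read from this count. Sobic.003G007300 is a member of the first kind. In RTX430 it went from 12.6, 9.42 and 11.8 CPM to 72, 120 and 30.2 CPM, and in Macia from 10.4, 11.8 and 12.3 CPM to 0, 6 and 3.31 CPM. The controls of the lines overlapped and the heated libraries did not, with a difference of -4.30 ± 0.65 (edgeR adjusted p = 0.000148). Sobic.004G214500 is a member of the second kind. It went from 9.29, 17.8 and 4.58 CPM to 45.3, 47.7 and 42.1 CPM in Macia. In RTX430 the controls were far apart, at 57.6, 0.673 and 10.6 CPM, and the heated libraries had 2.22, 2.97 and 4.03 CPM. Its difference of 4.95 ± 1.14 (edgeR adjusted p = 0.026) therefore rests in RTX430 on controls that span the heated values. Leaving out that line's control replicate 1 reduced it to 3.13 (edgeR adjusted p = 0.298), and 8 other libraries also took the adjusted p above 0.05 when left out, to between 0.0512 and 0.102.

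**Figure D2:**
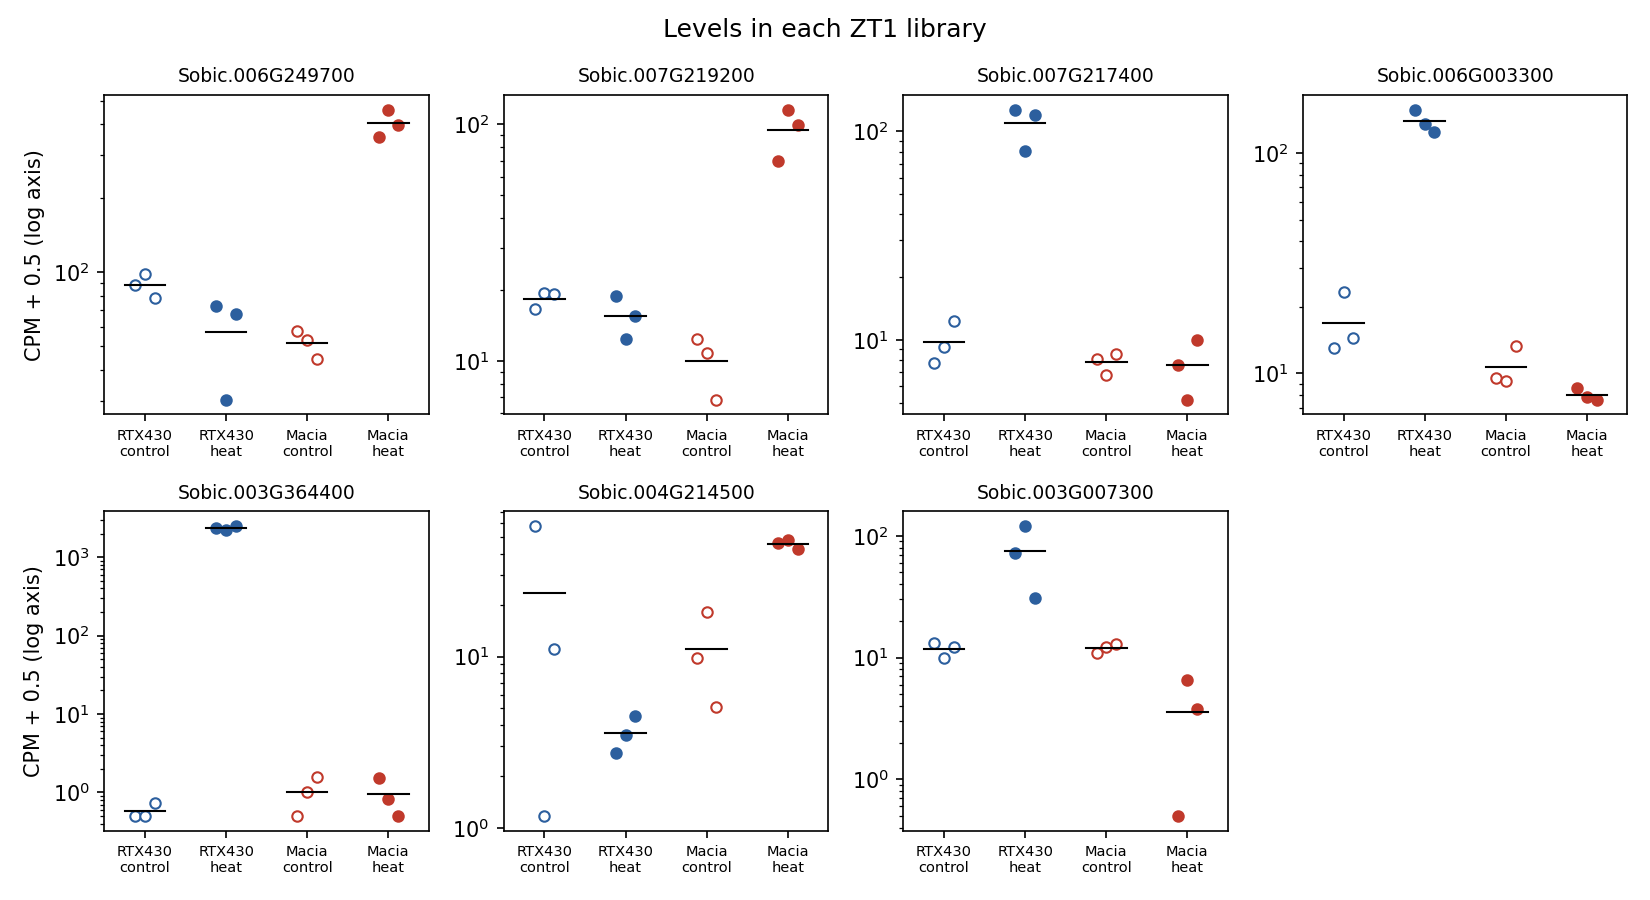
Level of 7 genes in each of the 12 libraries at ZT1 (vertical axes, CPM plus an offset of 0.5, log scale, a different range in each panel), with open circles for control, filled circles for heated leaves, RTX430 in blue, Macia in red and a bar at the mean of 3 libraries. In the first 5 panels 1 heated group stands apart from the other 3 groups, and in the panel of Sobic.004G214500 the RTX430 controls range from 0.673 to 57.6 CPM.

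The 122 genes covered a wide range of abundance. The highest of the 4 group means at ZT1 had a median of 43.6 CPM and ranged from 2.33 to 7120 CPM, with 40 genes over 100 CPM. Counts at or under 3 in every library of a group occurred in the RTX430 control for 7 genes and the Macia control for 4. They occurred in heated RTX430 leaves for 3 and in heated Macia leaves for 11. In these 4 groups, in that order, 3 counts stood for a mean of 1.4, 0.71, 2.2 and 1.8 CPM. No share over all genes is given beside these counts, so nothing is read from them. In 1 gene, Sobic.002G002300, every Macia library of the heat experiment was at that floor, while its level fell in RTX430 from 27.1, 32.3 and 24.1 CPM to 8.45, 10.4 and 6.04 CPM. It is counted above among the genes raised in Macia and lowered in RTX430, although its Macia response rests on 0, 2 and 2 counts after heat against none in control. A gene almost without reads in a line can give a difference of responses whatever happens in the other line, and this gene was named for that after its values were seen. By their identifiers the genes lay on all 10 chromosomes. Chromosome 5 held 8.2% of them against 4.86% of the genes tested, chromosome 7 held 9.02% against 6.5%, and chromosome 3 held 10.7% against 15%, with no test run. In 11 pairs, 2 called genes were within 10 tested genes of each other on a chromosome, and 7 of those pairs had the same direction. No number of pairs was worked out for genes placed at random, so no clustering is read from this count. Among the pairs, Sobic.003G007300 was 2 tested genes away from Sobic.003G006833, described below with the later times.

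At the later times few genes of the whole table passed the test for a difference between the lines. The call count was 0 at ZT6, 1 at ZT9 (0.00536%) and 16 at ZT15 (0.0858%), with 1582, 561 and 1795 genes at an unadjusted p under 0.05, where chance gives 932.4. DESeq2 called 16, 2 and 110 genes at these times. Of the 122 genes, 0, 1 and 7 were called at ZT6, ZT9 and ZT15, each in its ZT1 direction. Without RTX430 ZT15 control replicate 1 the call count at ZT15 was 9 over all genes, 4 of them among the 122. The ZT15 count over all genes was also 6 without Macia control replicate 2 or replicate 3, 8 without Macia heated replicate 2, 25 without RTX430 control replicate 2, 70 without RTX430 control replicate 3 and 75 without Macia heated replicate 3. At ZT9 the call was lost without Macia control replicate 3 or RTX430 control replicate 1.

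The direction of the ZT1 difference recurred for most of the genes. The sign was the same as at ZT1 for 90 genes at ZT6 (73.8%), 93 at ZT9 (76.2%) and 99 at ZT15 (81.1%). Over all genes tested the same share was 56.6% at ZT6, 51.4% at ZT9 and 60.4% at ZT15. The same sign with an unadjusted p under 0.05 was found for 30 genes at ZT6, 23 at ZT9 and 45 at ZT15, which is 24.6%, 18.9% and 36.9% of the 122, beside 5.95%, 1.69% and 6.76% of all genes. The opposite sign with such a p was found for 3, 3 and 2 genes, beside 2.53%, 1.31% and 2.86% of all genes. The fit shares an estimate of spread per gene over all times, so these p-values are not independent of the ZT1 choice. Without RTX430 ZT15 control replicate 1 the counts at ZT15 were 100 with the same sign and 38 with an unadjusted p under 0.05 as well. Genes of either direction took part. At ZT15 the sign recurred for 41 of the 54 Macia-larger and 58 of the 68 RTX430-larger genes.

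The size of the difference was smaller at the later times. Signed so that the ZT1 value is positive, the median difference over the 122 genes was 0.49 at ZT6, 0.38 at ZT9 and 0.65 at ZT15 on the log2 scale, against 2.73 at ZT1. The same median over all genes tested was 0.12, 0.018 and 0.19 at these times. Because the 122 genes were chosen for a large difference at ZT1, a smaller value in other libraries follows in part from that choice. At all 3 later times together, 61 genes kept their ZT1 sign, where 16.4% of all genes did. In 12 genes the same sign came with an unadjusted p under 0.05 at each later time, and in 63 at none of them. The matching shares over all genes were not worked out, so nothing is read from these last counts.

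**Figure D3:**
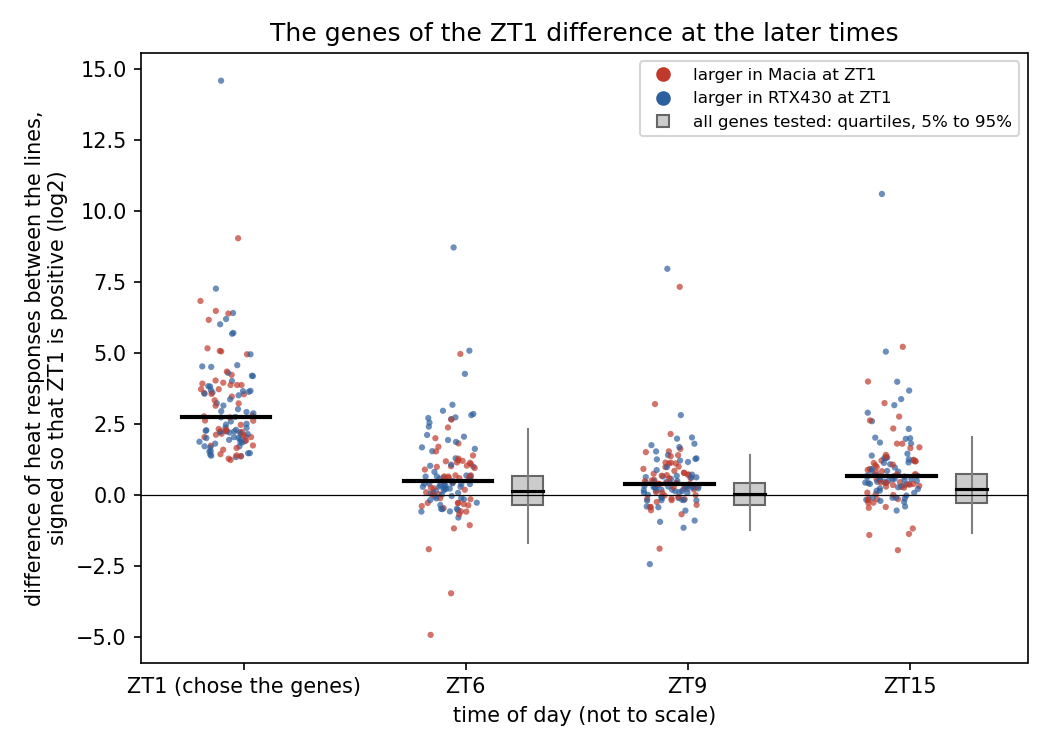
Difference of heat responses between the lines for the 122 genes at each time of day (vertical axis, log2, signed so that ZT1 is positive), with genes larger in Macia at ZT1 in red, genes larger in RTX430 in blue and a black bar at the median. Grey boxes give the quartiles and lines the 5% to 95% range of all genes tested, signed the same way. The medians of the 122 genes are 2.73, 0.49, 0.38 and 0.65, and at the later times lie above the medians of all genes.

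Averaged over ZT6, ZT9 and ZT15, an average chosen after the data had been seen, 36 genes were called (0.193%, or 99 in DESeq2) and 18 of the 122 were among them, all with their ZT1 sign. They comprised 10 Macia-larger and 8 RTX430-larger genes, and without RTX430 ZT15 control replicate 1 the count was 17 of 35. The 55 genes called at ZT1 without RTX430 ZT1 control replicate 1 kept their sign in 81.8% of cases at ZT6, 85.5% at ZT9 and 83.6% at ZT15. Over all genes in the same fit the shares were 54.8%, 50.7% and 58.7%. That fit called 37 genes in the later mean, and 14 of the 55 were among them. Sobic.002G057900, which had the smallest p of the 122 in this average, was also the most abundant of them. In RTX430 it had 135, 118 and 130 CPM in control and 7785, 5222 and 8354 CPM after heat at ZT1, a 55.9-fold ratio of means. In Macia it had 386, 476 and 353 CPM in control and 1194, 1597 and 1423 CPM after heat, a 3.47-fold ratio. Heat therefore turned the order of the lines around, from higher in Macia to higher in RTX430. The difference of responses was -4.01 ± 0.61 at ZT1 (edgeR adjusted p = 0.00015) and -3.67 ± 0.61 at ZT15 (edgeR adjusted p = 0.00515, or 0.0031 without RTX430 ZT15 control replicate 1). At ZT15 the level went from 225, 150 and 64.8 CPM to 2977, 4972 and 2241 CPM in RTX430, and from 435, 327 and 239 CPM to 825, 341 and 650 CPM in Macia. At ZT6 and ZT9 the differences were -2.96 ± 0.60 and -1.75 ± 0.59, neither called alone. The mean over the later times was -2.79 ± 0.35 (edgeR adjusted p = 9.28e-06).

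Sobic.003G006833 in heated RTX430 leaves kept apart from Macia at each time. In RTX430 it had 25.2, 14.8 and 29.2 CPM in control and 529, 498 and 471 CPM after heat at ZT1, a 21.7-fold ratio. In Macia no library of the heat experiment passed 5.94 CPM, and at ZT1 it had 0.844, 1.5 and 0.528 CPM in control and 3.02, 0.667 and 0 CPM after heat, on at most 6 counts. The lines therefore differed in control leaves at ZT1 as well. At ZT15 the RTX430 controls had 4.05, 17.9 and 13.2 CPM, the first in replicate 1, the library with reads of Macia genes. Heated RTX430 libraries had 284 to 295 CPM at ZT6, 145 to 246 CPM at ZT9 and 207 to 362 CPM at ZT15. The difference was -4.51 ± 1.04 at ZT1 (edgeR adjusted p = 0.026, with 0.0523 to 0.155 when any of 7 libraries was left out), -3.98 ± 0.76 at ZT15 (edgeR adjusted p = 0.0151, or 0.0645 without RTX430 control replicate 1) and -3.68 ± 0.46 in the mean of the later times (edgeR adjusted p = 9.28e-06). Its neighbour Sobic.003G007300 was raised by heat in RTX430 at ZT6, ZT9 and ZT15 as well, by 1.73 ± 0.42, 1.45 ± 0.42 and 1.36 ± 0.40, while its responses in Macia at those times were -0.38 ± 0.42, -0.35 ± 0.42 and -0.02 ± 0.40.

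Sobic.007G227000 stood out on the side of Macia. In Macia it went from 9.29, 8.25 and 11.1 CPM to 196, 175 and 183 CPM at ZT1, a 19.3-fold ratio. In RTX430 it had 6.78, 6.05 and 8.2 CPM in control and 10.2, 2.97 and 6.91 CPM after heat. At ZT15 the Macia libraries went from 18.6, 19.7 and 24.6 CPM to 77.7, 77 and 109 CPM, and those of RTX430 had 25.1, 31.8 and 14.3 CPM in control and 24.2, 13.5 and 21.1 CPM after heat. Controls of the lines overlapped at ZT15 and heated libraries did not. Heat raised the gene in Macia at every time, by 1.89 ± 0.33 at ZT6 and 1.37 ± 0.33 at ZT9 on the log2 scale, and in RTX430 it was called at none. The difference was 4.23 ± 0.52 at ZT1 (edgeR adjusted p = 4.99e-06) and 2.34 ± 0.46 at ZT15 (edgeR adjusted p = 0.0195, or 0.056 without RTX430 control replicate 1), and the mean of the later times was 1.98 ± 0.27 (edgeR adjusted p = 4.92e-05).

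Sobic.006G272600 was the only gene called at ZT9. There the heated Macia libraries had 53.5, 33.5 and 65.7 CPM against 9.88, 8.77 and 6.28 CPM in control, and RTX430 had 17.6, 11.3 and 7.05 CPM in control and 8.58, 7.29 and 7.66 CPM after heat. At ZT1 its level was higher throughout, from 88.6, 90.8 and 59.3 CPM to 130, 225 and 173 CPM in Macia and from 45.1, 45.1 and 48.2 CPM to 17.3, 23.8 and 24.5 CPM in RTX430. It was thus raised in Macia and lowered in RTX430 at ZT1. The difference was 2.23 ± 0.47 at ZT1 (edgeR adjusted p = 0.0129, with 0.0593 to 0.0695 without Macia control replicate 3, Macia heated replicate 2 or RTX430 heated replicate 1) and 3.20 ± 0.50 at ZT9 (edgeR adjusted p = 0.00427), while at ZT6 and ZT15 it was 1.27 ± 0.49 and 1.80 ± 0.48, neither called alone. The mean of the later times was 2.09 ± 0.28 (edgeR adjusted p = 4.47e-05).

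**Figure D4:**
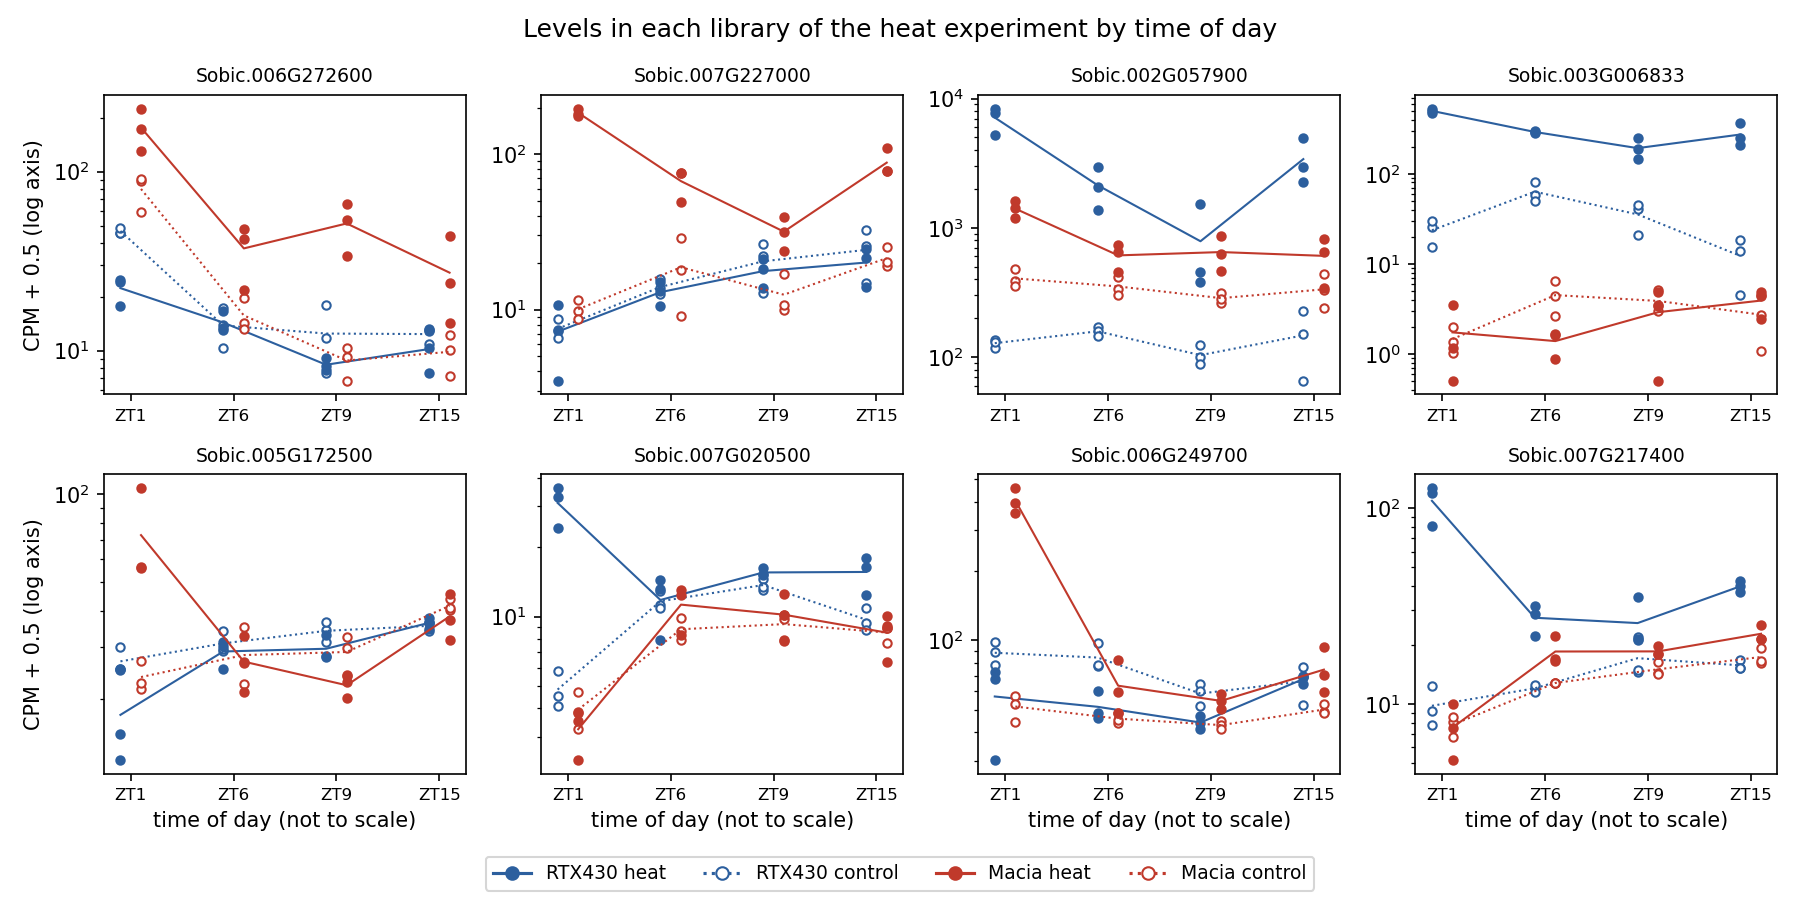
Level of 8 genes in each of the 48 libraries of the heat experiment (vertical axes, CPM plus an offset of 0.5, log scale, a different range in each panel) at ZT1, ZT6, ZT9 and ZT15, with open circles and dotted lines for control, filled circles and solid lines for heated leaves, RTX430 in blue and Macia in red, and lines through the means of 3 libraries. The top row holds 4 genes whose difference between the lines was called in the mean of the later times. The bottom row holds 4 genes whose difference was larger at ZT1, where a single heated group lies above the others.

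The difference at ZT1 was itself tested against the mean of the differences at ZT6, ZT9 and ZT15. This called 13 genes (0.0697%), all of them among the 122. The count was 16 without RTX430 ZT15 control replicate 1, 20 without RTX430 ZT6 heated replicate 1 and 40 in DESeq2. Of the 13 genes, 6 were Macia-larger and 7 RTX430-larger, and each had moved away from its later value in its ZT1 direction. The ZT1 values that chose the 122 genes enter this test too, so that overlap and direction follow in part from the choice. Sobic.005G172500 went from 21.1, 22.3 and 26.4 CPM to 55.4, 105 and 55.8 CPM in Macia at ZT1, and had 24.7, 29.6 and 24.8 CPM in control and 24.9, 11.9 and 14.7 CPM after heat in RTX430. Later its level in all 36 libraries stayed between 19.6 and 45.3 CPM. Its difference was 2.21 ± 0.32 at ZT1 (edgeR adjusted p = 0.000112) and 0.02 ± 0.32, -0.19 ± 0.31 and -0.15 ± 0.31 at ZT6, ZT9 and ZT15. The change between ZT1 and the later mean was 2.32 ± 0.37 (edgeR adjusted p = 0.000926).

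Sobic.007G020500 did the same in RTX430, going from 5.33, 4.04 and 3.62 CPM to 32.5, 35.7 and 23.6 CPM at ZT1 while Macia had 3.38, 2.75 and 4.22 CPM in control and 3.02, 3.33 and 1.89 CPM after heat. Its difference was -3.14 ± 0.41 at ZT1 (edgeR adjusted p = 9.54e-06), 0.36 ± 0.35 at ZT6, -0.09 ± 0.34 at ZT9 and -0.71 ± 0.34 at ZT15. From the later mean to ZT1 it changed by -3.00 ± 0.45 (edgeR adjusted p = 0.00042). In RTX430 heat raised this gene at ZT15 as well, by 0.72 ± 0.24. Of the genes described above, Sobic.006G249700 and Sobic.007G219200 changed by 2.75 ± 0.36 and 2.63 ± 0.39 and Sobic.007G217400 by -2.96 ± 0.38, each called. In the first of these, heat raised the level at ZT1 in Macia and no later response of Macia was called, with values of 0.48 ± 0.22, 0.35 ± 0.22 and 0.58 ± 0.22. RTX430 was lowered at ZT1 and ZT6, by -0.61 ± 0.22 and -0.72 ± 0.22, so this gene is among those with opposite responses at ZT1. For Sobic.006G249700 the difference in the mean of the later times was 0.84 ± 0.18 (edgeR adjusted p = 0.0256, or 0.056 without RTX430 ZT15 control replicate 1). Sobic.007G217400 was raised in RTX430 at ZT6 and ZT15 too, by 1.24 ± 0.23 and 1.37 ± 0.22. In Sobic.007G219200 Macia responded at each later time too, by 1.01 ± 0.23, 1.04 ± 0.23 and 1.25 ± 0.23, against 3.33 ± 0.25 at ZT1. For Sobic.003G364400 the lines differed at later times as well. Its heated RTX430 libraries held 719, 109 and 661 counts at ZT6, 3, 5 and 296 at ZT9 and 800, 1047 and 304 at ZT15, and no Macia library of the heat experiment held more than 6.

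Responses in each line were followed as well. Of the 68 RTX430-larger genes, 28 were raised in RTX430 at ZT6 (7.93% of all genes), 10 at ZT9 (3.02%) and 34 at ZT15 (16.3%). Without RTX430 ZT15 control replicate 1 the last count was 32. In Macia, 3, 7 and 8 of the 68 were raised at these times, beside 3.52%, 7.65% and 10.7% of all genes. Each of the 28, 10 and 34 genes was among the 50 of the 68 raised in RTX430 at ZT1. Of the 54 Macia-larger genes, 5, 9 and 11 were raised in Macia and 3, 0 and 3 in RTX430 at ZT6, ZT9 and ZT15, and those raised in Macia were all among the 47 raised there at ZT1. In RTX430, 7, 2 and 18 of the 54 were lowered, beside 5.37%, 1.05% and 19.2% of all genes. Whether these counts differ between the lines was tested only gene by gene, as given above.

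Levels in the lines were also compared as means over the later times. In controls, 39 of the 122 genes were called between the lines (11.3% of all genes). In heated leaves, 20 of the 54 Macia-larger genes were higher in Macia (6.59% of all genes), and 36 of the 68 RTX430-larger genes were higher in RTX430 (7.19% of all genes). In the opposite direction the counts were 6 of 54 and 3 of 68.

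In the cold experiment, fitted apart, 120 of the 122 genes were tested at ZT1. Under the label RTX430, cold raised 2 (3.11% of all genes) and lowered 5 (3.48%). Under the label SC224 it raised 8 (4.95%) and lowered 14 (6.13%). Both line names here are known only from the labels, by the comparison of labels given above. Of the genes named above, Sobic.003G364400 was not tested there, none was called under the label RTX430, and 2 were called under the label SC224. These were Sobic.007G219200, at -1.09 on the log2 scale (edgeR adjusted p = 0.00946), and Sobic.002G002300, at 1.76 (edgeR adjusted p = 0.00136).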

How the data were processed

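The authors deposited 1 table of raw counts for 34129 genes and 96 leaf libraries, whole numbers with no normalization. The submitters' processing notes name HISAT2 and DESeq2. Genome build, annotation, counter, strand setting and the handling of multiply matching reads are not given in the sources used here, so genes with near-identical copies or overlapping neighbours are uncertain. Columns were matched to samples by title. Among the 48 replicate pairs of the heat experiment none was identical, and chi-square over its degrees of freedom was at least 8.12.

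The 48 heat libraries, which set the precision with 1150669 to 7004627 counts each, entered a single edgeR fit (version 4.0.16, in R 4.3.3) of the deposited counts. The model had 16 group means, TMM factors and filterByExpr (minimum count 10, minimum total 15), which kept at least 99.55% of each library's counts, and the common biological coefficient of variation was 0.394. Each contrast had a quasi-likelihood F-test and a Benjamini-Hochberg adjusted p under 0.05. Standard errors were derived from the F statistic. The cold experiment was fitted apart. These standard errors include the spread between libraries as the fit estimated it. The floor of 3 counts covers counting error only, and PCR copies were not told apart. P-values measure the spread between these samples, whose separate origin is not described.

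The comparison, the members and the lists were chosen with earlier results of these data known. Named genes were to be the 8 smallest p-values in each direction, genes also called at another time, the 4 largest differences with opposite responses, and called members of lists of described genes. No identifier matched the reference table, so the lists, the leaf and cell type markers and promoter motifs could not be applied, and the named genes were reduced to a few in each direction of each comparison after their values were seen. Alternatives were RLE factors, plain library totals, DESeq2 1.42.0, no filter, only the libraries concerned, the replicate number as a block and each library left out. The fit was tested on simulated data with known changes.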

Additional observations from a re-analysis of the deposited data

Results flagged for a closer look

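A difference between the lines or between times of day that a test of the difference itself passed was looked at again. Such a test called 122 genes between the lines at ZT1, 1 at ZT9 and 16 at ZT15, 36 in the mean of the later times, and 13 for which ZT1 differed from that mean. Among the genes described above, the difference of heat responses at ZT1 (log2, Macia minus RTX430) was 3.59 for Sobic.006G249700, 3.54 for Sobic.007G219200, 4.23 for Sobic.007G227000, 2.23 for Sobic.006G272600, 2.21 for Sobic.005G172500, 4.95 for Sobic.004G214500 and 6.17 for Sobic.002G002300, the last fitted with Macia at the floor. It was -3.6 for Sobic.007G217400, -3.56 for Sobic.006G003300, -4.3 for Sobic.003G007300, -4.01 for Sobic.002G057900, -4.51 for Sobic.003G006833 and -3.14 for Sobic.007G020500. The fitted value of -14.6 for Sobic.003G364400 depends on the prior count, since the RTX430 control was at the floor, and is no bound. Groups of 3 libraries are too small for a test of a single library that stands apart.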

How the results depend on the processing

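The ZT1 call count of 122 was 118 with RLE factors, 91 with no filter and 177 with DESeq2, and 117, 89 and 107 of the 122 genes were called in those fits. With plain library totals it was 71, all 71 among the 122, and 34 of them had the larger value in RTX430. Fitted on the libraries of each time alone it was 47 (22 larger in Macia, 25 larger in RTX430), with 35 of the 122 called, 0 genes at ZT9 and 1 at ZT15, where 12 libraries in place of 48 set the spread. DESeq2 called 83 genes with the larger value in Macia at ZT1, 16 genes at ZT6, 2 at ZT9, 110 at ZT15, 40 for ZT1 against the later times and 99 in the mean of the later times. The median difference over all genes moved by at most 0.0984 between these fits. Same-sign counts at the later times stayed within 80 to 100 genes in them.

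With each library left out, calls ranged from 51 to 118 at ZT1 (17 to 55 larger in Macia, 30 to 72 larger in RTX430), with 50 to 95 of the 122 called, from 0 to 1 at ZT9, from 6 to 75 at ZT15, from 9 to 20 for ZT1 against the later times, from 24 to 51 in the mean of the later times and stayed at 0 at ZT6. Of the 122, 14 to 20 were called in that mean. All 28 genes named by rule kept their direction in the fits in which they were tested, 23 to 28 were called at ZT1 with a library left out, 26 to 28 in the other fits on all libraries and 17 of 27 in the fit on ZT1 libraries alone. In that last fit the p of Sobic.005G172500 and Sobic.003G007300 was 0.0571, that of Sobic.003G006833 was 0.0627 and that of Sobic.004G214500 was 0.137. With plain totals Sobic.004G214500 had 0.051. The cause of these changes was not tested.

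Same-numbered libraries did not deviate together throughout. At ZT1 the correlation of their deviations was positive in 13 of 18 pairs and over 0.1 in 6 (median 0.0793), 3 of these between RTX430 control and Macia heated libraries, so the replicate number was not used for pairing. With the replicate block, 93 genes were called at ZT1, 89 of them among the 122, and the counts were 0 at ZT6, 2 at ZT9, 15 at ZT15, 21 for ZT1 against the later times and 23 in the mean of the later times. The ZT1 p of Sobic.003G006833 was then 0.0646 and that of Sobic.002G002300 was 0.0717. With 3 libraries a group, a gene not called may still differ.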
